A study of Homo sapiens with 6 samples.

Results

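The microRNA miR-126 was followed through its 2 mature products, hsa-miR-126-3p and hsa-miR-126-5p, in small RNA sequencing of K562 cells, a human erythroleukemia cell line. Both were found by their names among the 28846 small RNA entries listed for every library, and both were among the 947 entries that passed a filter on low counts. The study asked which small RNAs change when the haematopoietic transcription factor RUNX1 is over-expressed. Control cells carried the empty lentiviral vector SIEW, which expresses GFP, and RUNX1 cells carried the same vector with human RUNX1 added. Each condition had 3 samples, which the study describes as independent transductions. The library names of RUNX1 replicates 1 and 2 carry the same number, so whether these 2 are as independent of each other as of replicate 3 is not known, and n = 3 and the spread between RUNX1 samples take them as separate. RNA was taken after 10 days of culture, and 1000 ng of total RNA entered each library. The RUNX1 mRNA was not measured by these libraries, so its level could not be set beside miR-126, and RUNX1 was supplied from a viral vector beside the cells' own gene, which limits the samples as a model of endogenous RUNX1.

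MicroRNA hairpins are cut from a longer transcript by Drosha and then by Dicer, which leaves a duplex of a 5p and a 3p arm. One arm is usually kept in Argonaute, where its seed, bases 2 to 8, pairs with target mRNAs. miR-126 is best known from endothelial cells, where the 3p arm restrains SPRED1 and PIK3R2, inhibitors of growth factor signalling, and VCAM1, an adhesion molecule. In blood it is known for its presence in haematopoietic stem and progenitor cells and in some acute myeloid leukemias.

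The mature sequences and the hairpin are shown because the results compare the arms of this one precursor. They are RefSeq sequences on GRCh38.p14, written 5′ to 3′, with capitals for the seeds in the mature arms and for both arms in the hairpin.
hsa-miR-126-5p: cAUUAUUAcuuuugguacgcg
hsa-miR-126-3p: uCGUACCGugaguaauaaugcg
MIR126 hairpin: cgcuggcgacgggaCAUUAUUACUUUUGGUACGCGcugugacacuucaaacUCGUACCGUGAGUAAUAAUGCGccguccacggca
The hairpin of 85 bases lies on the plus strand at chr9:136670602-136670686. Its 5p arm of 21 bases is at chr9:136670616-136670636 and its 3p arm of 22 bases at chr9:136670653-136670674, with 16 bases between them. In the structure folded by RNAfold, the arms shared 18 base pairs. MIR126 lies inside EGFL7, which codes for a secreted endothelial protein, at chr9:136658856-136672678 on the same strand. All 5 EGFL7 transcripts of GENCODE release 29 that span the hairpin hold it in an intron of 619 bases, 271 bases after one exon and 263 bases before the next. None of the other mature names in the RefSeq table, which holds 2370, shared the seed of either arm, and each arm sequence occurred in 1 hairpin.

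The libraries held between 1618248 and 15245007 counts, with the lowest total in control replicate 1 and the highest in RUNX1 replicate 1. Of these counts, 81.8% ± 0.396 belonged to microRNAs in control samples (SD, n = 3). The share was 90.9% ± 1.23 with RUNX1 (SD, n = 3). RUNX1 replicate 3 stood apart from the other RUNX1 samples. Chi-square per degree of freedom was 213 and 145 between it and RUNX1 replicates 1 and 2, against 26.9 between those 2 and 5.15 to 11.2 among the control samples. All 5 erythroid marker microRNAs were detected in every library. Their summed level, in counts-per-million (CPM) of the whole library, was 5865 to 6301 in control, and 1804, 2140 and 3275 in RUNX1 replicates 1, 2 and 3. miR-144-3p did not fall with this sum. All marker sums here rest on library size only, under which the median log2 fold change of all tested entries was -0.76. The neuronal miR-124-3p and the muscle microRNA miR-206 were at 0 in every library, and the sum over the 2 markers of neurons stayed at or under 0.323 CPM. Of other cell types, the 2 smooth muscle and fibroblast markers summed to 92.4 to 95.2 CPM in control and to between 1584 and 1685 CPM in RUNX1. miR-143-3p carried this rise, from at most 152 counts in a control library to at least 12786 in a RUNX1 library. As a share of the library, miR-145-5p moved little beside it, from 418 of 6152921 counts in control replicate 2 to 661 of 8506758 in RUNX1 replicate 2. With the scaling used for miR-126 below, it rose by a log2 fold change of 0.81. The 3 epithelial markers summed to 103 to 120.4 CPM in control and 196 to 239 CPM in RUNX1. Of these, miR-200c-3p moved little as a share of the library, from 121 of 6152921 counts in control replicate 2 to 198 of 8506758 in RUNX1 replicate 2. On the scaling used for miR-126 below, it passed the rule for an altered entry without RUNX1 replicate 1, 2 or 3. The 3 myeloid markers summed to 17548 to 20075 CPM in control and 32125 to 39707 CPM in RUNX1, mostly from miR-142-5p. miR-223-3p held a smaller share of RUNX1 replicate 3, 10790 of 7918551 counts, than of any control library. The lowest control share was 9913 of 6193319 counts, in control replicate 3. In RUNX1 replicates 1 and 2 its share was above every control library. With the scaling used for miR-126 below, miR-223-3p was higher in RUNX1 (log2 fold change 0.91), RUNX1 replicate 3 included. Its direction in that sample thus depended on the scaling. Liver, skeletal muscle and lymphoid markers summed to at most 2.03 CPM. In bulk RNA, fewer cells of one kind and less RNA per cell cannot be told apart. The part of these markers in the miR-126 result was not tested.

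Both miR-126 arms were abundant in control K562 cells and lower in all 3 RUNX1 samples, by less in RUNX1 replicate 3 than in RUNX1 replicates 1 and 2. From here on, CPM are scaled by the trimmed mean of M-values (TMM). miR-126-5p was at 40373, 40531 and 42768 CPM in control replicates 1, 2 and 3. In RUNX1 replicates 1, 2 and 3 it was at 11759, 13196 and 34372 CPM. The samples of the conditions did not overlap, but on this scale RUNX1 replicate 3 lay far closer to the control samples than to the other RUNX1 samples. Its level was 1.20-fold below the control mean, whereas RUNX1 replicates 1 and 2 were 3.50-fold and 3.12-fold below. Without TMM scaling, miR-126-5p held 2.98% of all counts in RUNX1 replicate 3 and 5.22% to 5.31% in control. In RUNX1 replicates 1 and 2 it held 0.89% and 0.97%. How near RUNX1 replicate 3 lay to control thus depended on the scaling.

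miR-126-3p, the arm with the better known targets, showed the same order of samples at a lower level. It was at 7485, 8564 and 8061 CPM in the control samples and at 1804, 2079 and 5806 CPM in RUNX1 replicates 1, 2 and 3. The conditions again did not overlap. RUNX1 replicates 1 and 2 were 4.45-fold and 3.86-fold below the control mean, and RUNX1 replicate 3 was 1.38-fold below. The raw counts behind these levels ran from 13001 to 69043 for miR-126-3p and from 82517 to 326740 for miR-126-5p. Counting error was at most 0.877% of any of these values, so depth did not limit them.

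**Figure D1:**
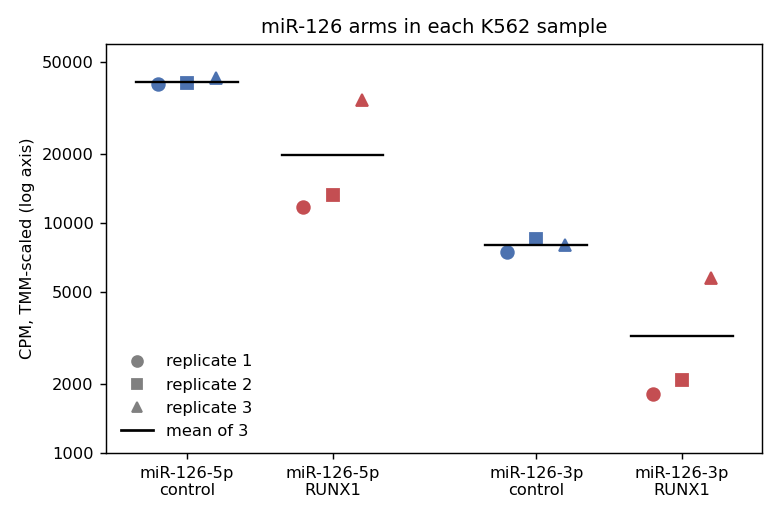
Level of miR-126-5p and miR-126-3p in each sample, in TMM-scaled CPM on a log axis. Each point is 1 sample, its shape gives the replicate number, and the line is the mean of 3 samples. RUNX1 replicate 3, at 34372 CPM for the 5p arm and 5806 CPM for the 3p arm, lies between the control samples and the other RUNX1 samples for both arms.

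As a share of all counts, the arms together made up 6.19%, 6.43% and 6.23% of the control libraries. They made up 1.03%, 1.12% and 3.48% of the libraries of RUNX1 replicates 1, 2 and 3. On average the share was 6.28% ± 0.130 for control and 1.88% ± 1.39 for RUNX1 (SD over 3 samples), which differ by -4.41 percentage points. An exact two-sided permutation test gave p = 0.1, the smallest value that 3 against 3 samples allow. The 95% Wilson intervals of single libraries were narrow, for example 6.41% to 6.45% in control replicate 2 and 3.47% to 3.49% in RUNX1 replicate 3. They cover counting error only.

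In the order of microRNAs by mean level, miR-126-5p went from place 4 of 598 in control to place 12 in RUNX1, and miR-126-3p from place 20 to place 35. RUNX1 replicate 3 was again the sample nearest to control. The 5p arm ranked 19th and 16th in RUNX1 replicates 1 and 2 and 7th in RUNX1 replicate 3, while the 3p arm ranked 46th, 43rd and 25th. In control cells the 5p arm lay between miR-10a-5p at 49745 ± 6587 CPM and miR-146b-5p at 40239 ± 1722 CPM. Its own mean was 41224 ± 1339 CPM, so that the gap to miR-10a-5p exceeded the SD of both and the gap to miR-146b-5p did not. The 3p arm, at 8037 ± 540.1 CPM in control, lay between miR-192-5p at 9664 ± 936 CPM and miR-224-5p at 7616 ± 765 CPM, and only the gap to miR-192-5p exceeded the SD of both. In RUNX1 cells the neighbours of the 5p arm were miR-92a-3p at 20834 ± 5383 CPM and miR-30d-5p at 18277 ± 1187 CPM. The 3p arm in RUNX1 cells lay between miR-27a-3p at 3233 ± 546 CPM and miR-151a-3p at 3003 ± 328 CPM. The arms' own means in RUNX1 were 19776 ± 12661 CPM for 5p and 3229.6 ± 2236 CPM for 3p. This spread was wider than the gap to these neighbours, so these places in the order are not separated.

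Both arms passed the rule of the study for an altered small RNA, a P-value under 0.05 and a size of 0.5 or more on the log2 scale. edgeR's quasi-likelihood test gave miR-126-3p a log2 fold change of -1.32 (SE 0.39, adjusted p = 0.0164). For miR-126-5p the same edgeR fit gave -1.06 (SE 0.36, adjusted p = 0.0293). Being altered was common in this comparison, at 57.6% of the 947 tested entries in either direction and 29.6% in the lower direction. With the adjusted p in place of the P-value, 54.6% were altered. Samples of the conditions also did not overlap, with RUNX1 lower, for 33.5% of entries. A fall at least as large as that of miR-126-3p was seen in 155 entries, and one at least as large as that of miR-126-5p in 193. Leaving out RUNX1 replicate 3 moved the log2 fold changes to -1.97 (SE 0.10) and -1.64 (SE 0.09), when 63.2% of entries were altered and 31.3% were lower. Without any one of the other 5 libraries, the adjusted p of miR-126-5p rose to between 0.0655 and 0.0788 in edgeR. That of miR-126-3p rose to 0.0524 in edgeR without control replicate 2.

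**Figure D2:**
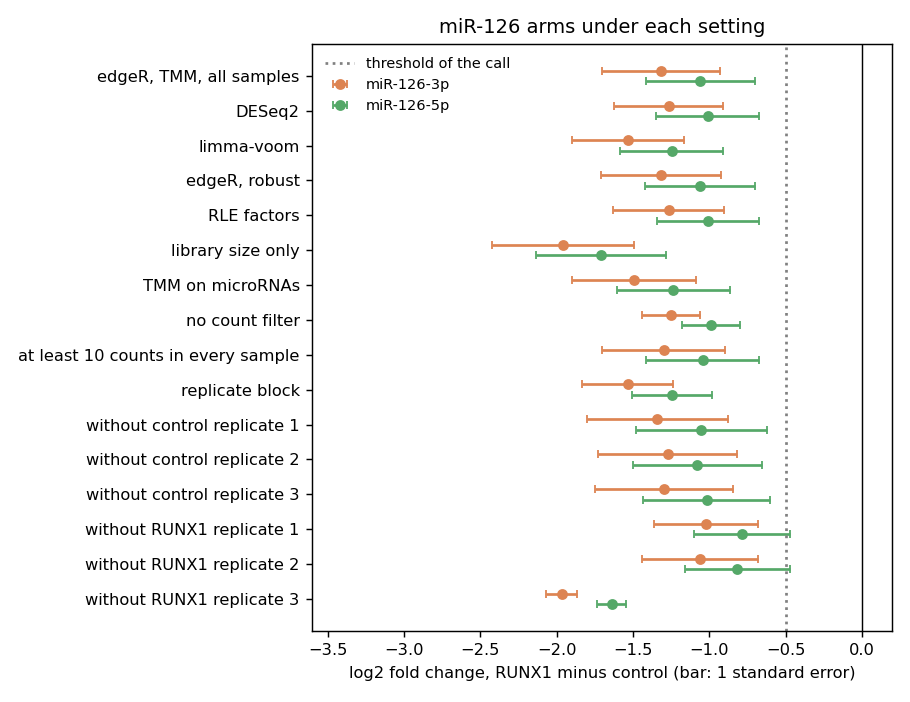
Log2 fold change of each miR-126 arm, RUNX1 minus control, under each way of fitting the counts. Points are estimates, bars are 1 standard error and the dotted line is the size of 0.5 used for calls. All estimates lie below it, from -1.97 to -1.02 for the 3p arm and from -1.71 to -0.79 for the 5p arm, and the bars are shortest without RUNX1 replicate 3.

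Among the microRNAs that fell, the miR-126 arms carried much of the control level. Of the tested microRNAs, 56% were altered. Of the 135 called lower (22.6%), miR-126-5p had the highest control level and miR-126-3p the next. Together they held 64.3% of the summed control CPM of all 135. By size of fall they ranked 83rd and 65th. This share depended on how the libraries were scaled. It was 67.1% with DESeq2, 32.9% with TMM factors taken from microRNAs alone, 17.8% with library size only, and 48.6% without RUNX1 replicate 3. miR-126-5p ranked first by control level in each of these settings, whereas miR-126-3p ranked between 2nd and 9th.

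The spread of miR-126 between the RUNX1 samples was among the widest of the well-counted microRNAs. The SD of log2 CPM was 0.92 for the 3p arm and 0.85 for the 5p arm in RUNX1, against 0.10 and 0.05 in control. As a coefficient of variation, it was 69.2% and 64.0% in RUNX1, and 6.72% and 3.25% in control. Of the 286 tested microRNAs with at least 100 counts on average, 4 had a RUNX1 SD at least as large as that of the 3p arm and 6 as large as that of the 5p arm, the arm itself included in each count. The median SD of these 286 was 0.24 in RUNX1 and 0.11 in control. Across all tested entries, which include many with few counts, 5.60% and 6.65% were at least as variable.

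**Figure D3:**
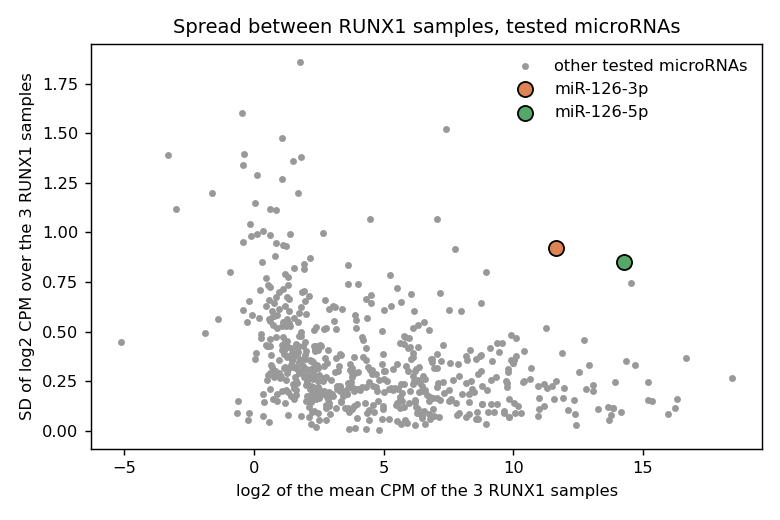
SD of log2 CPM over the 3 RUNX1 samples (vertical axis) against the log2 of their mean CPM (horizontal axis), with 1 point for each tested microRNA. At SDs of 0.92 and 0.85, the miR-126 arms sit above the other microRNAs of similar level.

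This spread came from RUNX1 replicate 3. Its level exceeded the mean of RUNX1 replicates 1 and 2 by 1.58 on the log2 scale (2.998-fold) for miR-126-3p and by 1.46 (2.76-fold) for miR-126-5p. For the 286 well-counted microRNAs the median of this difference was -0.11. The 3p arm had the 3rd largest difference and the 5p arm the 5th. The others of the 5 were miR-7974, miR-25-5p and miR-92a-1-5p. miR-7974 was at 260.6 to 290 CPM in control, at 59.2 and 65.1 CPM in RUNX1 replicates 1 and 2 and at 386 CPM in RUNX1 replicate 3, above every control sample. miR-25-5p, from the miR-106b/25 cluster, was at 381 to 404 CPM in control and at 66.5, 76.6 and 256 CPM in the RUNX1 samples. miR-92a-1-5p, from the miR-17/92 cluster, was at 734 to 768 CPM in control and at 124, 136 and 388 CPM. In these last 2, as in miR-126, RUNX1 replicate 3 stayed below the control samples.

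To see whether RUNX1 replicate 3 was nearer to control across small RNAs, each RUNX1 sample was placed on a scale from 0, the control mean of an entry, to 1, the mean of the other RUNX1 samples. Only entries altered in the fit without the placed sample were used, so that the sample did not take part in these calls. It did take part in the count filter over all 6 samples, which kept 599 of 612 such entries for RUNX1 replicate 3, and in the TMM factors. Choosing entries by the difference of the other RUNX1 samples from control can in itself lower the place of the sample left out. Places were taken from TMM-scaled log2 CPM only, and other scalings were not tried for them. RUNX1 replicate 3 had a median place of 0.74 over 599 entries (quartiles 0.48 and 0.94), and 80.6% of entries were under 1. RUNX1 replicates 1 and 2 had medians of 1.10 and 1.07, on scales whose upper end includes RUNX1 replicate 3. Most entries of RUNX1 replicate 3 were thus on the control side of the other RUNX1 samples. The miR-126 arms were further toward control than most, at 0.23 for 3p and 0.15 for 5p. Of the 599 entries, 11.0% lay at or below the 3p arm and 9.35% at or below the 5p arm. By direction, the median place was 0.73 for 292 lower entries and 0.74 for 307 higher ones. Of the 141 microRNAs that were lower, like miR-126, 27 (19.1%) lay at or below the 3p arm and 24 at or below the 5p arm. Of the 223 higher microRNAs, 15 (6.73%) and 11 did so. The 5 erythroid markers differed among themselves. miR-486-5p and miR-144-5p, both called lower, had places of 0.13 and 0.14, and miR-451a, also lower, had 0.67. miR-144-3p was called higher, with a log2 fold change of 1.02, and had a place of 1.09. miR-486-3p was not called (log2 fold change 0.37), so its place is not given. Whether the amount of RUNX1 differed between these samples was not measured.

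The arms of miR-126 varied together. Over the 6 samples, Pearson's r between the log2 CPM of miR-126-3p and miR-126-5p was 0.996. This r describes 6 points that share their libraries and scaling, and it includes the difference between conditions. Of 596 other tested microRNAs, 26 had an r of at least 0.95 with miR-126-3p. The 5 highest were miR-18a-3p (0.999), miR-25-5p (0.998), miR-3176 (0.993), miR-7704 (0.993) and miR-378a-5p (0.990). miR-18a-3p, a product of the miR-17/92 cluster, was at 469, 504 and 498 CPM in control and at 181, 192 and 384 CPM in RUNX1 replicates 1, 2 and 3. Its edgeR log2 fold change was -0.96 (SE 0.27), and that of miR-25-5p was -1.57 (SE 0.45). The first 4 had RUNX1 replicate 3 between the conditions in the way of miR-126. miR-378a-5p was at 155 to 169 CPM in control and at 118, 123 and 156 CPM in RUNX1, so its conditions overlapped, and it was not called (log2 fold change -0.31, adjusted p = 0.102 in edgeR). Without RUNX1 replicate 3, 106 microRNAs had an r of at least 0.95 over 5 samples.

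The balance between the arms moved little beside the change in level. miR-126-3p made up 15.6%, 17.4% and 15.9% of the counts of both arms in control replicates 1, 2 and 3. In RUNX1 replicates 1, 2 and 3 it made up 13.3%, 13.6% and 14.5%. The samples did not overlap, as was the case for 54.9% of the 144 arm pairs with both arms tested. The highest RUNX1 value, in replicate 3, had a Wilson interval of 14.3% to 14.6%, and the lowest control value one of 15.4% to 15.9%. The mean share was 16.3% ± 0.985 in control and 13.8% ± 0.596 in RUNX1 (SD, n = 3 each), and an exact two-sided permutation test gave p = 0.1. Read the other way, the 5p arm was 5.14-fold ± 0.359 above the 3p arm in control and 6.26-fold ± 0.309 in RUNX1. The arms differ by 1 base in length, so no length correction was made.

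In a limma fit over all arm pairs, the log2 ratio of 3p to 5p was -2.36 ± 0.10 in control and -2.65 ± 0.07 in RUNX1. The difference was -0.29 (SE 0.11, adjusted p = 0.0580 in limma). Its unadjusted p was under 0.05, as for 51.4% of pairs, but it was under 0.5 in size. Both conditions were met by 47.2% of pairs. A difference at least this large in size was found in 105 of 144 pairs, and the median size was 0.61. These are estimates, and many of those pairs did not pass the rule. Between the RUNX1 samples, the SD of the log2 ratio was 0.07, against a median of 0.28 over all 144 pairs, many of which have an arm with few counts. Over the 72 pairs with both arms at 100 counts or more on average, the median SD was 0.22, and 7 pairs, miR-126 included, had an SD at most as large. In these 72 pairs, 51 had a difference between conditions at least the size of that of miR-126. The 5p arm exceeded the 3p arm in control in 82 of 144 pairs, and 3 pairs were more abundant than miR-126 with their arms summed. Both arms were called lower in 12 pairs, of which miR-126 was 1, both higher in 33, and in opposite directions in 8.

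**Figure D4:**
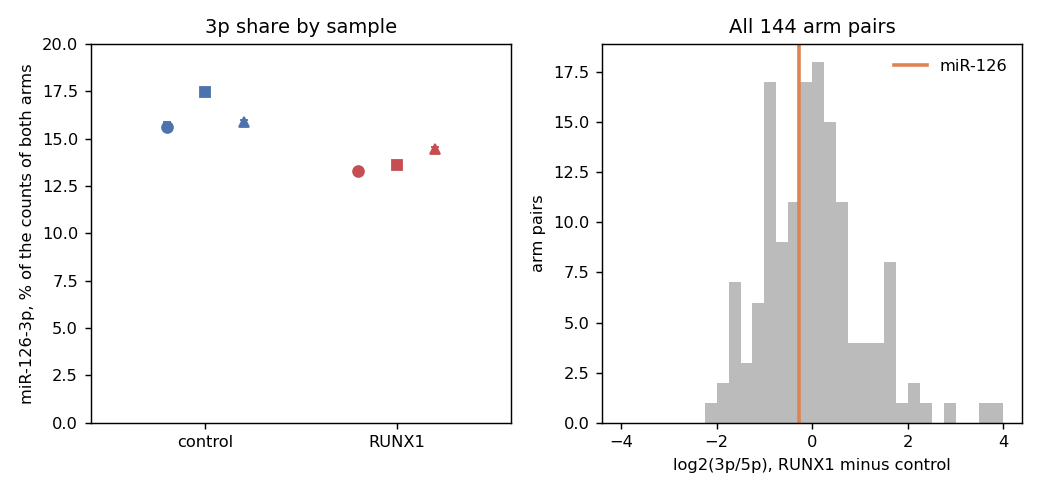
Left, miR-126-3p as a percentage of the counts of both miR-126 arms in each sample, with 95% Wilson intervals for counting error. Right, the difference in log2(3p/5p), RUNX1 minus control, over all 144 arm pairs, with miR-126 marked at -0.29. The RUNX1 samples lie between 13.3% and 14.5%, under the control samples at 15.6% to 17.4%, and 105 of the 144 pairs have a difference of at least the same size.

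Other microRNAs known from the cell types of miR-126 were counted against all tested microRNAs, of which 33.4% were called higher and 22.6% lower, with a median log2 fold change of 0.11. The lists by cell type overlap, and miR-221-3p, miR-10a-5p and miR-146a-5p, for example, are each counted in several of them. Of 20 endothelial-enriched microRNAs, 18 were tested, of which 10 rose, 1 fell and 7 did not pass. Their median log2 fold change was 0.75. Over all tested entries, 28% were called higher and the median was -0.06. miR-221-3p and miR-222-3p, which target the receptor KIT, rose by log2 fold changes of 4.22 (SE 0.22) and 2.52 (SE 0.17), and miR-10a-5p, from the HOXB cluster, by 2.83 (SE 0.17). Of 12 stem and progenitor microRNAs of blood, 9 were tested. Of these 4 rose, 2 fell and 3 did not pass, with a median of 0.37, and so few members cannot be set apart from the shares over all microRNAs. miR-146a-5p, an inhibitor of NF-kB signalling, rose by 4.20 (SE 0.17) and miR-29a-3p by 2.33 (SE 0.15). The members that fell were miR-100-5p by a log2 fold change of -1.94 and miR-99a-5p by -1.68, named after their values were seen, and they were at 14.96 and 17.1 CPM on average in control. Neither had the sample order of miR-126, since RUNX1 replicate 3 lay beyond the other RUNX1 samples, at places 1.87 and 1.37.

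Of 19 erythroid and megakaryocytic microRNAs, 16 were tested, of which 12 rose, 3 fell and 1 did not pass, with a median of 0.93. The members that fell were miR-451a, miR-486-5p and miR-144-5p. The largest changes were those of miR-221-3p, miR-146a-5p and miR-34a-5p, a p53 target that rose by 2.66 (SE 0.42). These 3 were low in control, at 6.10, 10.4 and 0.75 CPM on average, and miR-34a-5p had only 2, 2 and 8 counts there. Leaving out RUNX1 replicate 3 gave 11 higher and 2 lower in the endothelial list, and the same numbers in the other lists. Scaling by library size only shifted the median of all entries to -0.76. It gave 6 higher and 6 lower in the endothelial list, 3 and 4 in the stem and progenitor list, and 5 and 4 in the erythroid and megakaryocytic list, so the direction of these lists rests on the scaling. TMM factors from microRNAs alone gave 9 higher and 3 lower, 3 and 3, and 9 and 3, in the same order. Relative to the median of all entries with library size only, the miR-126 arms were at -1.20 (3p) and -0.94 (5p), close to -1.25 and -0.996 with TMM.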

How the data were processed

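Small RNA libraries from 3 control and 3 RUNX1 samples were sequenced, and the authors deposited raw read counts per annotated small RNA, without normalization. The submitters' processing notes name CASAVA 1.8.2 and the build hg19, and the methods name the OASIS platform. How reads matching several places were counted is not given in the sources used here. Some reads appear under 2 names. For example, a predicted microRNA entry and miR-15a-5p had the same mean CPM, 475 in control and 1007 in RUNX1. Numbers and percentages of microRNAs include such predicted entries. Coordinates come from RefSeq and GENCODE on GRCh38 and were not converted. Summary lines, all at 0, were left out. Groups came from the sample labels. The library names carry a letter that follows the condition and may only name it, and no label gives a preparation batch.

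Entries were kept by filterByExpr (minimum count 10, total 15), scaled by TMM and tested in edgeR 4.0.16 (R 4.3.3) with glmQLFit and glmQLFTest over all 6 samples. Standard errors were derived as each fold change (log2) divided by the square root of its F statistic. Adjusted p-values are Benjamini-Hochberg values over all tested entries. Arm ratios, log2 of (count + 0.5), were tested with limma 3.58.1 over 144 pairs with a trend. Shares were compared by exact permutation tests. The hairpin was folded with ViennaRNA 2.7.2. The scripts were tested on simulated counts with a common dispersion. No simulated RUNX1 sample stood apart from the others, so that test does not cover the spread seen here. The members and lists were chosen with earlier results of these data known.

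Named beside the arms were the 5 microRNAs most correlated with miR-126-3p, the 5 with the largest excess in RUNX1 replicate 3 among those of at least 100 counts, the neighbours in level, and the 3 largest changes per gene list. Alternatives were DESeq2 1.42.0, limma-voom, robust edgeR, other scalings, filters, pseudocounts and totals, a replicate block, and leaving out each library. Totals of 1618248 to 15245007 counts put the floor of 3 counts at 0.000185% to 1.97e-05% of a library. PCR reads without molecular identifiers are not independent molecules, so intervals and floors cover counting error only.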

Additional observations from a re-analysis of the deposited data

How the results depend on the processing

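Both arms were lower in RUNX1 with an unadjusted p under 0.05 in all 15 alternative fits, from -1.97 to -1.02 (log2) for miR-126-3p and from -1.71 to -0.79 for miR-126-5p. Leaving out single libraries gave -1.97 to -1.02 and -1.64 to -0.79, with the largest falls without RUNX1 replicate 3. Both arms summed into 1 entry, a fit chosen after seeing the data like the placing of samples without their own calls and the likeness and list counts without RUNX1 replicate 3 and the arm pairs of at least 100 counts, gave -1.09 (SE 0.36, adjusted p = 0.0261 in edgeR). The median of all log2 fold changes was -0.06 with TMM, -0.26 with TMM from microRNAs alone (arms at -1.49 and -1.24), -0.76 with library size only (-1.96 and -1.71) and 0.12 with no filter (-1.25 and -0.99). The number of altered entries ran from 386 with at least 10 counts in every sample to 761 with no filter.

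The difference in log2 arm ratio, -0.29, was least secure. Its p in limma was 0.104 without the trend (-0.29). Leaving out single libraries gave -0.325 (without RUNX1 replicate 3) to -0.226, with p over 0.05 without control replicate 2 (-0.23), control replicate 3 (-0.31), RUNX1 replicate 1 (-0.26) or RUNX1 replicate 2 (-0.27). The cause was not tested. Same-numbered samples did not deviate together (correlations -0.03, -0.09 and 0.00), so the numbers were not taken as pairs. With the replicate block, the arms were at -1.53 and -1.25, 546 entries were altered, and the arm ratio differed by -0.29 (adjusted p = 0.102 in limma).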
